A study of Mus musculus with 6 samples.

Results

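ADAMTS proteases and their inhibitors of the TIMP family were followed in lungs of mice without a functional Col6a1 gene, which encodes a chain of the microfibrillar collagen VI. The genes were taken by name from the table of normalized counts, 6 ADAMTS genes (Adamts1, Adamts2, Adamts5, Adamts8, Adamts9 and Adamts15) and 4 TIMP genes (Timp1, Timp2, Timp3 and Timp4). All 10 were found among 49568 genes, and all 10 passed the filter on low values. One group was Col6a1-/- and the other wildtype. Both were 6 weeks old with C57BL/6 given as the strain, and no treatment separated them. Each group had 3 libraries, and each library held the pooled RNA of 2 animals of 1 genotype, so that differences between single animals cannot be seen. RNA came from the right lung lobes after the vessels had been perfused. Where single libraries are listed, they stand in the order of replicates 1, 2 and 3 of a genotype, a numbering that does not pair pools across genotypes.

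ADAMTS enzymes are secreted zinc metalloproteases with thrombospondin type 1 repeats. They cut matrix proteoglycans such as versican and aggrecan, or trim the amino-terminal propeptides from fibrillar procollagens. TIMPs are small secreted proteins that plug the active site of matrix metalloproteinases and, in the case of TIMP3, also of ADAM and ADAMTS enzymes. In the lung this balance sets how fast the matrix of the alveolar wall and vessels is turned over, and mice that lack TIMP3 develop enlarged airspaces.

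What makes these genes a protease and inhibitor family is visible in a short stretch of each coding sequence. All 6 ADAMTS coding sequences held exactly 1 match to the zinc-binding motif of the catalytic domain. The pattern searched was histidine, glutamate, 2 free residues, histidine, 5 free residues and histidine. The 33 bases of each match are given with its 3 histidine codons, which bind the zinc, in capitals, from GENCODE M21 on GRCm38.
Adamts1: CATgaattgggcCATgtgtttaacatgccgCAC
Adamts2: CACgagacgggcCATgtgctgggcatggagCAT
Adamts5: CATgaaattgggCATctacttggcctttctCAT
Adamts8: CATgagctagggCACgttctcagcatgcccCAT
Adamts9: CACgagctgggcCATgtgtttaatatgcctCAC
Adamts15: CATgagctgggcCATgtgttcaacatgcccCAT

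Adamts9 and Adamts15, the genes with the largest differences between genotypes, were identical at 28 of these 33 bases. Each of them also matched Adamts1 at 28 bases, whereas Adamts5 and Adamts9 shared 18. In all 6 genes the motif was split by an intron. Including that intron, it lay at chr6:92905285-92908493 (minus strand) in Adamts9, beginning in exon 8 of 40, and at chr9:30911255-30911690 (minus strand) in Adamts15, beginning in exon 2 of 8.

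TIMPs inhibit through the amino terminus of the mature protein, where the first cysteine reaches the zinc of the protease. A search for cysteine, a free residue, cysteine, a free residue, proline, a free residue, histidine and proline gave exactly 1 match in each TIMP coding sequence. The 33 bases that start there are given with their 2 cysteine codons in capitals.
Timp1: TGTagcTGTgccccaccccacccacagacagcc
Timp2: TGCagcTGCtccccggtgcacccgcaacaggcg
Timp3: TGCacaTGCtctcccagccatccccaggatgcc
Timp4: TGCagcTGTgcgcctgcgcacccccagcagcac

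Pairs of TIMP genes were identical at 19 to 23 of the 33 bases. None of the 4 stretches was interrupted by an intron. That of Timp3 lay at chr10:86300923-86300955 (plus strand) in exon 1 of 5, and that of Timp1 at chrX:20871111-20871143 (plus strand) in exon 2 of 6.

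The members lie on 6 chromosomes, with 2 pairs of close neighbours. Adamts15 (ENSMUSG00000033453.8, chromosome 9, 30899155 to 30922452, minus strand) and Adamts8 (ENSMUSG00000031994.13, chromosome 9, 30942562 to 30963838, plus strand) start 20.1 kb apart and point away from each other, with no annotated gene between them. Adamts1 (ENSMUSG00000022893.14, chromosome 16, 85793827 to 85803113) and Adamts5 (ENSMUSG00000022894.6, chromosome 16, 85856173 to 85901828) are both on the minus strand, 53.1 kb apart, with no coding gene between them. Adamts9 (ENSMUSG00000030022.14) spans chromosome 6, 92772699 to 92943492, minus strand, and Adamts2 (ENSMUSG00000036545.8) chromosome 11, 50602084 to 50807573, plus strand. Timp1 (ENSMUSG00000001131.11, chromosome X, 20870166 to 20874735, plus strand), Timp3 (ENSMUSG00000020044.13, chromosome 10, 86300372 to 86349506, plus strand) and Timp4 (ENSMUSG00000030317.8, chromosome 6, 115241892 to 115252205, minus strand) each lie inside a synapsin gene of the opposite strand, Syn1, Syn3 and Syn2. Timp2 (ENSMUSG00000017466.9) spans chromosome 11, 118301069 to 118355740, minus strand.

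The labels do not say whether counting used strand, so reads in bases shared with an antisense gene cannot be assigned. Shared exon bases made up 21.3% of the annotated exons of Timp3, with Syn3, and 1.53% of those of Timp4, with Syn2. Syn3 reached at most 60.2 normalized counts in any library, against 27991 or more for Timp3. For Timp4 the partner Syn2 was the larger, with up to 561 normalized counts. Adamts9 shared 9.18% of its exon bases with A730049H05Rik and 2.82% with Gm15737, which reached at most 41.6 and 9.88 normalized counts. Adamts8 shared 10.6% of its exon bases with the antisense gene Gm29724, for which no count was used here. Adamts1, Adamts5 and Adamts15 overlapped no annotated gene.

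Libraries held between 28055414 and 37904878 reads assigned to genes. As a check of the tissue, the surfactant gene Sftpc of alveolar type 2 cells was at 443498 to 583425 normalized counts in every library. Col6a1 itself was at 9344 to 10616 normalized counts in the Col6a1-/- libraries and 18393 to 22331 in the wildtype libraries, the direction of the labels. The sexes were not balanced between the pools. Y-linked transcripts (Ddx3y, Uty, Kdm5d and Eif2s3y, averaged and set to 100% in the highest library) stood at 0.347%, 3.35% and 51.5% in the wildtype pools and at 72.5%, 100% and 51.1% in the Col6a1-/- pools. Col6a1-/- replicate 2, the library at 100%, had 28.4 normalized counts of Xist against 10486 or more elsewhere. Genotype and sex are therefore partly confounded, and the main results below are also given with this male share as a covariate or from the 3 pools of mixed sex (wildtype replicate 3 and Col6a1-/- replicates 1 and 3).

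Levels of different genes were compared as normalized counts per kb of the longest annotated transcript. Timp3 and Timp2 stood far above all other members in both genotypes. In wildtype lungs Timp3 was at 7428 ± 245 and Timp2 at 6861 ± 60.8 normalized counts per kb (SD, n = 3 pools), with libraries that did not overlap. Adamts1 came next at 1345 ± 239 per kb, so that Timp2 was 5.1-fold above the most abundant of the 6 ADAMTS genes compared here. Adamts15 at 895 ± 139 and Adamts2 at 668 ± 129 overlapped, as did Adamts9 at 430 ± 58.3 and Adamts8 at 392 ± 61.2. Below them stood Timp1 at 290.2 ± 38.6, Adamts5 at 54.4 ± 4.88 and Timp4 at 15.2 ± 1.82 per kb, each apart from its neighbours in the order.

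The same order held at both ends in Col6a1-/- lungs, and changed in the middle. Timp3 (7064 ± 1602 per kb) and Timp2 (6525 ± 563 per kb) now overlapped. Adamts15 moved from the fourth to the fifth place at 502 ± 141 per kb, and Adamts9 from the sixth to the seventh at 266 ± 50.3. From Adamts2 down to Timp1, each of these 5 neighbouring genes overlapped the next. With the union of all exons as the length, Timp2 rather than Timp3 was first, because the exon union of Timp3 (8.14 kb) is longer than its longest transcript (4.72 kb). By that length Adamts15 was in the fifth and Adamts9 in the eighth place in both genotypes, so that their change of place rests on the choice of length.

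**Figure D1:**
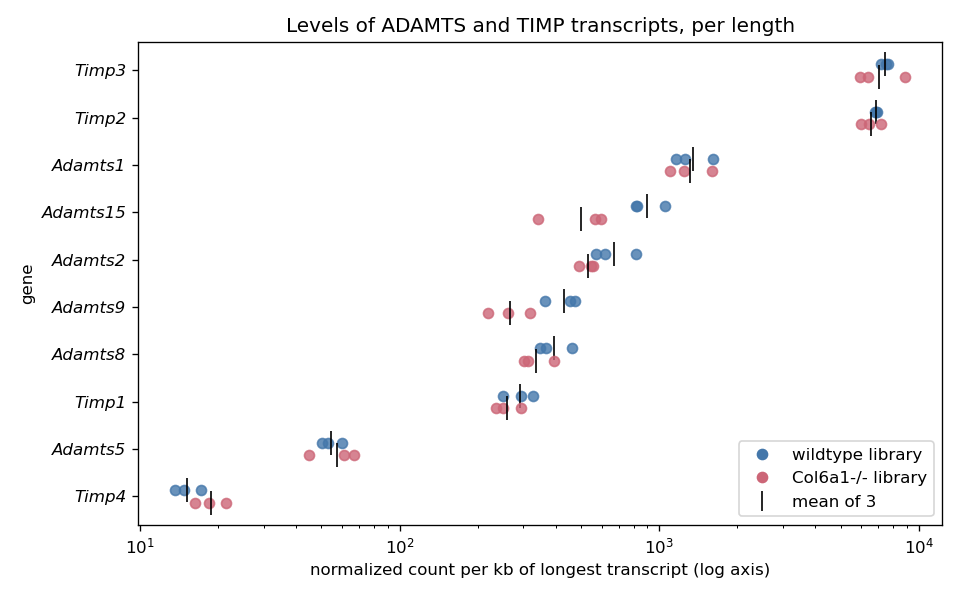
Normalized counts per kb of longest transcript on a log axis for each ADAMTS and TIMP gene, with blue points for wildtype and red points for Col6a1-/- libraries and a black tick at the mean of 3. Timp3 (wildtype mean 7428 per kb) and Timp2 (6861) lie far above Adamts1 (1345), the highest ADAMTS gene drawn, and Adamts15 and Adamts9 are the genes whose colours are most clearly apart.

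Among the proteoglycan-cutting ADAMTS genes, Adamts9 and Adamts15 had no Col6a1-/- value that reached the lowest wildtype value. Adamts9, the largest enzyme of the family and a versican and aggrecan protease, had 3642, 2913 and 3785 normalized counts in the wildtype pools and 2557, 1753 and 2096 in the Col6a1-/- pools. The lowest wildtype library therefore lay above the highest Col6a1-/- library. The mean was 3447 ± 467 in wildtype and 2135 ± 403 in Col6a1-/- lungs (SD, n = 3 each), or 62.0% of wildtype. On the log2 scale the difference was -0.70 (SE 0.14, 95% interval -1.02 to -0.38), with an unadjusted limma p of 0.000591 and an adjusted p of 0.0833, so that it did not pass the threshold of 0.05 over all genes. In the authors' deposited table Adamts9 had a log2 fold change of -0.58 and an adjusted p of 0.00074, past that threshold. DESeq2 on reads recovered from the normalized counts gave -0.69 at an adjusted p of 0.000738. The deposited fold changes are thus smaller in size at nearly the same p, and cannot be set against the limma sizes.

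Adamts15, a versican-cutting protease, showed the largest difference of the 10 genes. Wildtype pools held 4811, 4855 and 6258 normalized counts of it, and Col6a1-/- pools 3549, 2021 and 3361. The genotypes did not overlap, and Col6a1-/- replicate 2 was the lowest library by a wide margin. The mean was 5308 ± 823 in wildtype against 2977 ± 834 (SD, n = 3 each), or 56.1% of wildtype, with a log2 difference of -0.87 (SE 0.19, 95% interval -1.30 to -0.44). Its unadjusted limma p was 0.00106 and its adjusted p 0.0939, again short of the threshold. The authors' deposited table gave -0.66 and an adjusted p of 0.000726, where DESeq2 on the recovered reads gave -0.83 and 0.000725.

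For these genes the size of the difference was similar when sex was taken into account. With the male share as a covariate the log2 difference was -0.69 for Adamts9 and -0.74 for Adamts15. From the mixed-sex pools it came to -0.71 and -0.86. The lone wildtype pool there, replicate 3, was the highest wildtype library for both genes. The covariate takes up a degree of freedom that overlaps with genotype, and the limma adjusted p rose to 0.614 and 0.64. Unadjusted limma p in that fit were 0.0218 for Adamts9 and 0.0531 for Adamts15. They were smaller for Adamts1 (0.00258), Adamts2 (0.00154) and Adamts8 (0.0029), at adjusted p of 0.548, 0.543 and 0.564. These 2 genes therefore did not stand out from the other ADAMTS genes in that fit. Fold changes across all genes also followed transcript length and GC content (Spearman's rho across 16435 genes of -0.281 and -0.289, with no p because genes are not independent). The longest transcripts of Adamts9 and Adamts15 measure 8.02 and 5.93 kb, against a median of 3.16 kb. After a smooth trend on length and GC was removed from each library the log2 differences of Adamts9 and Adamts15 were -0.48 and -0.65. Their limma adjusted p were 0.143 and 0.192.

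Adamts1, Adamts5 and Adamts8 were not separated by genotype. Adamts1, a versican and aggrecan protease that also restrains blood vessel growth, had 5671, 6154 and 7888 normalized counts in the wildtype pools, compared with 6117, 7786 and 5385 in those of Col6a1-/- mice. Both genotypes covered nearly the same range, with means of 6571 ± 1165 and 6429 ± 1231 (SD, n = 3 each). Its log2 difference was -0.03 with a 95% interval from -0.37 to 0.30 and a limma adjusted p of 0.924. The mixed-sex pools gave -0.46, and the fit with the male share as a covariate gave -0.57 (adjusted p 0.548). The wildtype pool of mixed sex, replicate 3, was the highest of the wildtype libraries.

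Adamts5, a major aggrecanase of cartilage, was much less abundant. Wildtype pools held 570, 544 and 646 normalized counts and Col6a1-/- pools 718, 482 and 658. The Col6a1-/- libraries thus lay on both sides of the wildtype ones. The log2 difference was 0.06 (95% interval -0.27 to 0.39, adjusted p 0.844).

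Adamts8, known like Adamts1 for restraining vessel growth, gave 1333, 1259 and 1676 normalized counts in wildtype lungs, compared with 1096, 1430 and 1132 without Col6a1. Here Col6a1-/- replicate 2 lay within the wildtype range and the other Col6a1-/- libraries lay below it. The mean was 85.7% of wildtype, with a log2 difference of -0.22 (95% interval -0.52 to 0.08, adjusted p 0.375). The mixed-sex pools gave -0.59, and the value was -0.63 with the male share as a covariate.

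The 2 neighbouring pairs can be read as ratios within a library, which no scaling of libraries affects. Adamts15 was 3.61, 3.86 and 3.73 times Adamts8 in the wildtype pools, and 3.24, 1.41 and 2.97 times in the Col6a1-/- pools. This ratio was lower in each Col6a1-/- library, most of all in replicate 2, where Adamts15 was low and Adamts8 high. For Adamts1 over Adamts5 the ratios were 9.95, 11.3 and 12.2 for wildtype, then 8.52, 16.1 and 8.19 for Col6a1-/- pools. Here Col6a1-/- replicate 2 lay above and the other 2 below all wildtype libraries. These ratios were formed after the values were seen and carry no test.

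Adamts2 cuts the amino-terminal propeptide from procollagens I and III. Its wildtype values were 4508, 4139 and 5917 normalized counts, and its Col6a1-/- values 3968, 4042 and 3580. The genotypes did not overlap, though wildtype replicate 2 and Col6a1-/- replicate 2 lay close together. The mean was 4855 ± 939 in wildtype and 3863 ± 248 in Col6a1-/- lungs (SD, n = 3 each), or 79.6% of wildtype. Its log2 difference was -0.31 (SE 0.13, 95% interval -0.60 to -0.03), with an unadjusted limma p of 0.0322 and an adjusted p of 0.205. It was -0.16 without wildtype replicate 3 and -0.07 with the length and GC trend removed, but -0.65 in the mixed-sex pools and -0.69 with the male share as a covariate.

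**Figure D2:**
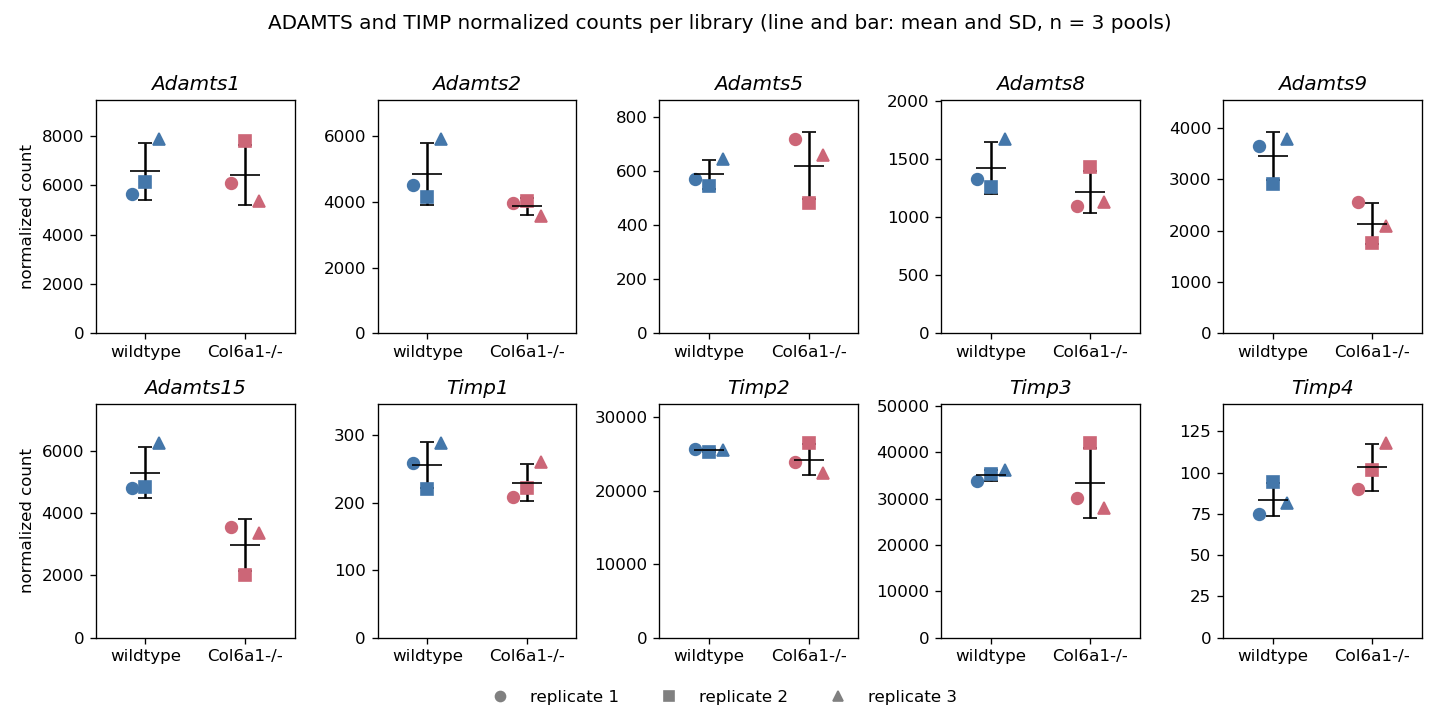
Normalized counts of the 10 genes in each library, with wildtype in blue and Col6a1-/- in red, a marker shape per replicate, and the mean with its SD in black (axes start at 0). Only Adamts2, Adamts9 and Adamts15 have no overlap between genotypes, where 14.2% of all tested genes lay lower and 10.7% higher without overlap. Col6a1-/- replicate 2 is at the top for Timp3 and at the bottom for Adamts15.

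The TIMP transcripts all overlapped between genotypes. Timp3, the inhibitor that binds to matrix and reaches ADAMTS and ADAM enzymes, had 33812, 35321 and 36089 normalized counts in the wildtype pools, against 30074, 42006 and 27991 in the Col6a1-/- pools. Wildtype libraries lay within a narrow band, and the Col6a1-/- libraries lay above and below it, with coefficients of variation of 3.3% and 22.7%. The log2 difference was -0.10 (95% interval -0.42 to 0.23, adjusted p 0.735), and it was -0.43 with the male share as a covariate.

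Timp2, which both inhibits metalloproteinases and helps MMP14 activate MMP2 at the cell surface, was the member that varied least among wildtype libraries. Normalized counts of 25646, 25203 and 25495 in wildtype pools compared with 23829, 26451 and 22326 in Col6a1-/- pools. The wildtype values varied by 0.886% and the Col6a1-/- values enclosed them. A log2 difference of -0.08 carried a 95% interval of -0.29 to 0.14 and an adjusted p of 0.687. With the male share as a covariate it was -0.20.

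Timp1, a soluble inhibitor that is induced in inflammation and binds pro-MMP9, was low, at 260, 221 and 289 normalized counts in wildtype pools against 208, 222 and 260 in Col6a1-/- pools. The ranges overlapped, at a log2 difference of -0.15 (95% interval -0.48 to 0.17, adjusted p 0.573). Beside it, all 7 tested genes of a STAT3 and acute-phase list had lower estimates in Col6a1-/- lungs, where 48.3% of all genes did. The median log2 difference of the list was -0.30. With the male share as a covariate 5 of the 7 were lower, with a median of -0.19, and the median was -0.26 in the mixed-sex pools. The mean log2 level of the 7 genes, relative to the 6 libraries, was 0.06 to 0.21 in wildtype and -0.27 to -0.04 in Col6a1-/- libraries.

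Timp4, the TIMP of heart and fat tissue, was the lowest member, at 74.8, 94.4 and 81.3 normalized counts in wildtype pools against 89.9, 102 and 118 in Col6a1-/- pools. Wildtype replicate 2 overlapped Col6a1-/- replicate 1. The mean was 1.24-fold that of wildtype, with a log2 difference of 0.30 (95% interval -0.10 to 0.70, adjusted p 0.364). Markers of fat tissue and heart muscle also had higher values. None passed the limma threshold. The authors' deposited table called 2 of the fat and 3 of the cardiac markers higher, where 1.87% of all genes with an adjusted p were. All 8 fat tissue markers and all 8 cardiac markers had higher estimates, where 8720 of all 16879 genes did. Their medians were 1.26 and 0.35 on the log2 scale. The fat markers summed to 2725 to 6710 normalized counts in wildtype and 7901 to 12943 in Col6a1-/- libraries, and the cardiac markers to 17241 to 23341 and 23588 to 25851. No marker in either list was under 10 normalized counts in every library. The part of these tissues in the level of Timp4 was not tested.

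The summed level of the 4 TIMPs, per kb, came to 14383, 14542 and 14858 in wildtype pools against 13045, 16297 and 12263 in Col6a1-/- pools. Timp2 and Timp3 made up 97.4% to 98.3% of it in each library. For the 6 ADAMTS genes the sum came to 3468, 3409 and 4479 in wildtype pools against 3085, 3149 and 2796 in Col6a1-/- pools. The ADAMTS sums did not overlap between genotypes while the TIMP sums did. As a share of all 10 genes, the ADAMTS level was 19.4%, 19.0% and 23.2% for wildtype, which overlaps the 19.1%, 16.2% and 18.6% of Col6a1-/- pools. Adamts9 and Adamts15 together supplied 34.1% to 36.5% of the ADAMTS sum in wildtype libraries, and 29.8%, 17.8% and 29.6% in the Col6a1-/- pools.

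Counted against all tested genes, no ADAMTS or TIMP gene passed the limma threshold in either direction, where 0.0474% of all genes passed lower and 0.0178% higher. Adamts9 and Adamts15 were the 2 of the 10 genes called lower in the authors' deposited table, and none was called higher, where 3.18% of all genes with an adjusted p were called lower and 1.87% higher. Without adjustment, 3 of the 6 ADAMTS genes and none of the 4 TIMP genes had a limma p under 0.05, all lower, where 10.6% of all genes did so lower and 9.72% higher. The same 3 genes were those with no overlap between genotypes, where 14.2% of all genes had every Col6a1-/- library below every wildtype library and 10.7% above. The median log2 difference was -0.27 over the ADAMTS genes and -0.09 over the TIMP genes, against 0.01 over all tested genes. The ADAMTS median was -0.66 with the male share as a covariate, -0.62 in the mixed-sex pools, -0.13 without wildtype replicate 3 and -0.09 with the length and GC trend removed. For the TIMP median these fits gave -0.21, -0.23, -0.07 and 0.01, and it was 0.00011 without Col6a1-/- replicate 3. The genes were chosen with earlier results of these data known, so these counts are a description. In whole tissue, fewer cells of a type and less RNA per cell cannot be told apart.

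**Figure D3:**
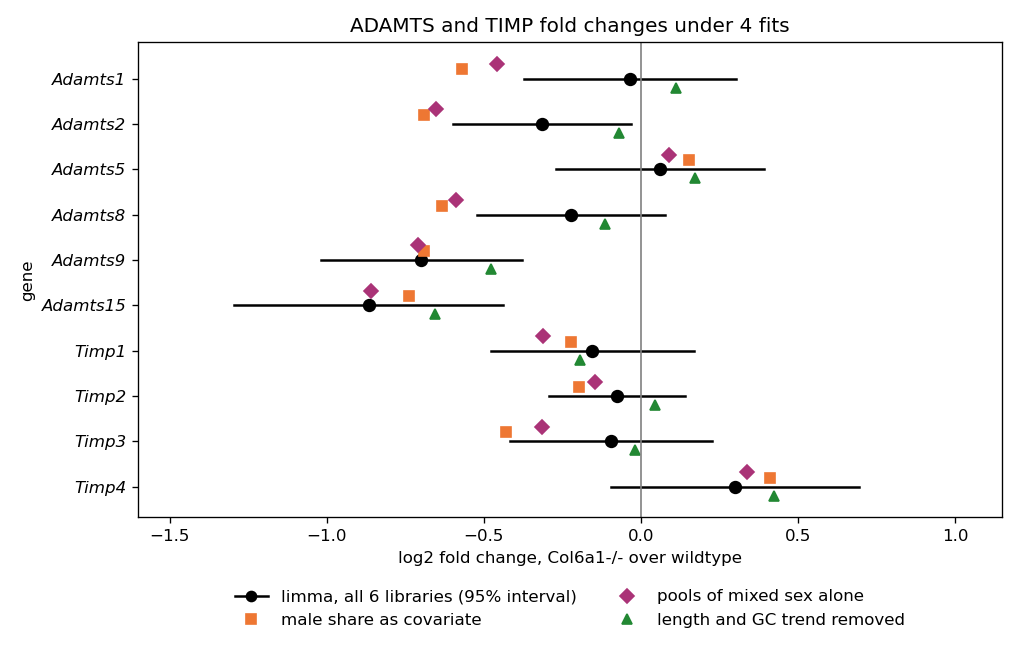
Log2 fold change of each gene, Col6a1-/- over wildtype, with its 95% interval from limma on all 6 libraries (black), with the male share as a covariate (squares), in the mixed-sex pools alone (diamonds) and with the trend on length and GC content removed (triangles). Adamts9 and Adamts15 stay between -0.48 and -0.87 in all 4. Adamts1, Adamts2 and Adamts8 shift by 0.3 or more towards lower values in both fits that use sex, as does Timp3 with the male share (-0.10 to -0.43). Wildtype replicate 3 is the lone wildtype pool behind the diamonds. In a fit without it, not drawn, Adamts1 was at 0.10, Adamts2 at -0.16 and Adamts8 at -0.10.

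The remaining ADAMTS proteases gave no limma call either. Of 13 other genes, 11 were tested, and 8 had lower and 3 higher estimates with a median of -0.15. That median was -0.42 with the male share as a covariate and -0.04 with the length and GC trend removed. Unadjusted p under 0.05 was reached by 2, both lower, where 10.6% of all genes did so. Adamts12, a protease of cartilage matrix proteins, stood at 53.2% of wildtype (357 ± 105 against 189.7 ± 79.7 normalized counts, SD, n = 3 each), with no overlap, a log2 difference of -0.95 and a limma adjusted p of 0.119. In the authors' deposited table its adjusted p was 0.0183, which made it the only one of these 13 called there. Adamts3, a procollagen II propeptidase and activator of VEGF-C, was at 70.3% of wildtype (adjusted p 0.212). Adamts4, an aggrecanase, overlapped between genotypes at 56.9% (adjusted p 0.255). Its log2 difference was -1.12, but -0.38 with the male share as a covariate and -0.66 in the mixed-sex pools.

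ADAMTS-like proteins share the repeats of the proteases and lack the catalytic domain. Of 6 such genes, 5 had lower estimates and 4 of these had no overlap between genotypes, where 14.2% of all genes lay lower without overlap. Their median of -0.32 was -0.13 with the male share as a covariate (4 of 6 lower), -0.09 in the mixed-sex pools and -0.11 with the length and GC trend removed. Adamtsl2, which binds latent TGF-beta binding protein and fibrillin, was at 68.6% of wildtype, 7631 ± 1275 against 5235 ± 131 normalized counts (SD, n = 3 each). Its log2 difference was -0.53 with a limma adjusted p of 0.0869, and an adjusted p of 0.00193 in the authors' deposited table. It was -0.76 with the male share as a covariate and -0.32 with the length and GC trend removed. Adamtsl4 was at 75.4% of wildtype, with a limma adjusted p of 0.138 and 0.0488 in the authors' deposited table, but its log2 difference was -0.07 with the male share as a covariate. Adamtsl3 was at 78.3% of wildtype with a limma adjusted p of 0.133.

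No gene that prepares ADAMTS enzymes for secretion passed the limma threshold. Furin, the convertase that removes the ADAMTS prodomain, was at 82.9%, the related convertase Pcsk5 at 85.6% and Pofut2, which adds fucose to thrombospondin repeats, at 89.0% of wildtype. None of these 3 overlapped between genotypes, where 14.2% of all genes lay lower without overlap. Furin and Pcsk5 had an unadjusted limma p under 0.05 (0.0103 and 0.0406), where 10.6% of all genes did so lower. The limma adjusted p were 0.14, 0.225 and 0.271 for Furin, Pcsk5 and Pofut2. In this group 5 of 6 genes had lower estimates, and 2 of 6 with the length and GC trend removed.

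Substrates of these proteases were not called, with 1 exception. The hyalectan Vcan, versican, overlapped between genotypes at 84.7% of the wildtype mean (adjusted p 0.521), as did Bcan, brevican, at 97.9% (adjusted p 0.935). For Vcan the log2 difference was -0.23, and -0.44 with the male share as a covariate. Acan, the aggrecan gene, was under 10 normalized counts in every library, as were the cartilage markers Col9a1 and Matn1. Among the procollagens cut by ADAMTS2, ADAMTS3 and ADAMTS14, Col5a1 was at 79.0% of wildtype (adjusted p 0.154) and Col1a1 at 88.7% (adjusted p 0.397). Their log2 differences were -0.33 and -0.17, and -0.09 and 0.03 with the length and GC trend removed. Col2a1 had 5.24 ± 2.12 normalized counts in wildtype and 12.9 ± 2.44 in Col6a1-/- lungs (SD, n = 3 each) with an adjusted p of 0.159. The exception was Vwf, von Willebrand factor, which ADAMTS13 cleaves. It stood at 63.2% of wildtype with a log2 difference of -0.67 and a limma adjusted p of 0.0468. The difference of Vwf was -0.72 with the male share as a covariate, a fit that called no gene at all (adjusted p 0.543). It was -0.67 in the mixed-sex pools. With the length and GC trend removed it was -0.41 and the call was kept (adjusted p 0.0416). Adamts13 itself is made mainly in liver and was near the filter on low values, with a log2 difference of 0.02.

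On the inhibitor side, 15 metalloproteinase genes whose products TIMPs bind were tested. Estimates were lower for 11 and higher for 4, with a median of -0.24, and 7 had an unadjusted p under 0.05, all lower, where 10.6% of all genes did so. With the male share as a covariate 2 did so lower and 1 higher, where 777 and 529 of all 16879 genes did so. The median was -0.18 in that fit and -0.22 in the mixed-sex pools. With the length and GC trend removed 13 of the 15 had lower estimates, with a median of -0.16. In that fit 4 had an unadjusted p under 0.05 lower and 1 higher, where 1268 and 1819 of all 16435 genes did so. In the main fit 6 of the 15 lay lower without overlap, where 14.2% of all genes did so. Mmp3, stromelysin 1, was at 79.7%, Adam15 at 83.4% and Mmp28 at 80.9% of wildtype, each without overlap and with limma adjusted p of 0.148, 0.149 and 0.153. Lrp1, the endocytic receptor that clears TIMP3 and ADAMTS5, was at 79.9% of wildtype with no overlap and an adjusted p of 0.143, but its log2 difference of -0.33 was -0.03 with the length and GC trend removed. Kdr, the VEGF receptor that TIMP3 can block, was at 87.6%, and Efemp1, which binds TIMP3, was 1.11-fold, with adjusted p of 0.282 and 0.287. With that trend removed their log2 differences were -0.02 and 0.02. Among procollagen C-proteinases and their enhancers, Tll1 was at 70.3% (adjusted p 0.131), Pcolce at 96.5% (0.777) and Pcolce2 1.07-fold (0.553).

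**Figure D4:**
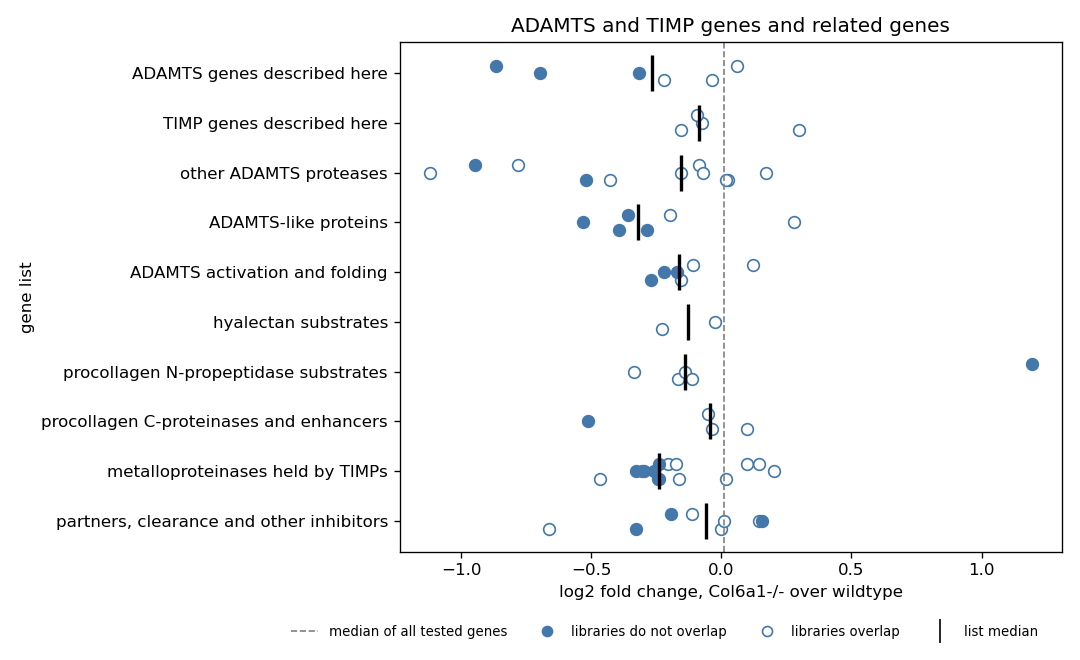
Log2 fold change of every tested gene in the ADAMTS and TIMP groups and 8 related lists (Vwf, a list of its own, is not drawn), filled where the libraries of the genotypes do not overlap, with a black tick at each list's median and a dashed line at the median of all tested genes. The medians drawn lie between -0.32 (ADAMTS-like proteins) and -0.04 (procollagen C-proteinases), all below the dashed line at 0.01.

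Over all 58 tested related genes, 44 had lower estimates with a median of -0.17, 19 had an unadjusted p under 0.05 and a lower value, and 1 a higher value, where 10.6% and 9.72% of all genes did so. Over all tested genes 48.3% had lower estimates. The related genes have a median transcript length of 4.56 kb, above the 3.16 kb of all tested genes. With the length and GC trend removed, 35 of the 58 had lower estimates and their median was -0.04, against 44.9% and 0.02 over all genes in that fit. Unadjusted p under 0.05 was then reached by 9 lower and 4 higher. Of all 16435 genes in that fit, 1268 did so lower and 1819 higher.

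Markers of cell types that could carry these transcripts gave the following values. Fibroblast markers had a summed level of 79065 to 93746 normalized counts in wildtype and 77316 to 80643 in Col6a1-/- libraries. Their median log2 difference was -0.11 over 6 genes, with 4 lower and 2 higher estimates. Of these 6 genes, 1 lay lower and 1 higher without overlap, where 14.2% and 10.7% of all genes did so. Endothelial markers summed to 129526 to 142428 and 116858 to 121471, with a median of -0.18, and smooth muscle markers to 28193 to 37118 and 28807 to 30469, with a median of -0.20. The smooth muscle median turned to 0.12 with the male share as a covariate and 0.08 in the mixed-sex pools. Pericyte markers had a median of -0.08 and mesothelial markers of 0.04. With the length and GC trend removed, the fibroblast median turned to 0.04 and the pericyte median to 0.06. All 8 immediate early genes, a group that responds to handling and to hypoxia, were tested, with 6 higher estimates and a median of 0.12. That median was 0.63 with the male share as a covariate and 0.54 in the mixed-sex pools. With the covariate 6 of 8 were higher at an unadjusted limma p under 0.05, where 529 of all 16879 genes were. The mean log2 level of the list was 0.10, 0.12 and -0.34 in wildtype replicates 1, 2 and 3. In Col6a1-/- replicates 1, 2 and 3 it was 0.21, -0.33 and 0.24. Wildtype replicate 3, the lone wildtype pool of the mixed-sex fit, was thus the lowest of its genotype. Red cell markers had 6 higher estimates of 6, where 8720 of all 16879 genes had higher ones. They summed to 41769 to 47812 normalized counts in wildtype against 62106 to 102363 in Col6a1-/- libraries. In these lists no marker stayed under 10 normalized counts throughout, and the part of cell composition in the ADAMTS and TIMP values was not tested.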

How the data were processed

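RNA from perfused right lung lobes was sequenced as 6 libraries, 3 per genotype, each from 2 animals. Tools named in the submitters' processing notes are DESeq2 1.16.1, featureCounts from Subread 1.5.0p3, STAR 2.5.2b and Trimmomatic 0.36, with the build GRCm38.p5; neither the annotation release nor the strand setting is stated there. Each deposited signal value is a DESeq2-normalized count per gene, per the name of the table. Values were whole reads over 1 size factor per library (100% to within 1e-06), and the recovered reads served depth and count models only. The authors' deposited table of the 2 genotypes holds a log2 fold change, a p-value, and a mean and test statistic (each a score).

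Of 49568 rows, 16879 reached 10 normalized counts in 3 or more libraries. These entered a two-sided limma-trend fit of log2(normalized count + 1), run with limma 3.58.1 under R 4.3.3, and p-values were adjusted by Benjamini-Hochberg across these genes, at a threshold of 0.05. This scale understates changes of genes with low counts. The fit was also run on simulated counts with the same spread setting for every gene. These held no sex imbalance and no trend on length or GC content, so that run cannot speak to either. Positions, lengths and coding sequences are from GENCODE M21 (GRCm38), matched by symbol for 95.5% of rows. Genes were named by rule: all 10 members, and from each related list the called genes and up to 3 with the smallest unadjusted p. Further genes are marked where they appear. Members, lists and tests were chosen with earlier results of these data known. Alternatives were other pseudocounts and filters, median centring, quantile normalization, library quality weights, edgeR 4.0.16, DESeq2 1.42.0, a replicate block, a covariate for the male share, removal of a trend on transcript length and GC content (natural splines, 5 degrees of freedom each), another gene length, and each library left out. The mixed-sex pools alone, and DESeq2 on the tested genes, were added after seeing the data.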

Additional observations from a re-analysis of the deposited data

How the results depend on the processing

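Direction was kept in all 20 alternatives for Adamts2, Adamts8, Adamts9, Adamts15, Timp1 and Timp4. Adamts1 turned positive with quantile normalization (0.014) and with the length and GC trend removed (0.11), and Timp2 did so at 0.030 and 0.047. Adamts9 passed the threshold with no filter on low values (-0.70), library quality weights (-0.59), DESeq2 on the recovered reads (-0.69, also on the tested genes alone, -0.69) and in the mixed-sex pools (-0.71). Adamts15 passed with library quality weights (-0.69), with both DESeq2 fits (-0.83 and -0.83) and in the mixed-sex pools (-0.86), where Adamts2 (-0.65) and Adamts8 (-0.59) passed too. That last fit has 1 residual degree of freedom and takes its spread largely from other genes, with wildtype as a lone sample. Fits that left out a library gave log2 differences of -0.18 to 0.10 for Adamts1, -0.42 to -0.16 for Adamts2, -0.06 to 0.23 for Adamts5, -0.34 to -0.10 for Adamts8, -0.84 to -0.56 for Adamts9, -1.02 to -0.61 for Adamts15, -0.26 to -0.06 for Timp1, -0.14 to -0.02 for Timp2, -0.27 to 0.02 for Timp3 and 0.20 to 0.39 for Timp4. Without wildtype replicate 3, Adamts9 and Adamts15 passed, with adjusted p of 0.0367 and 0.0499. The highest adjusted p in these fits was 0.342 for both, without Col6a1-/- replicate 3. Adamts1 turned positive without wildtype replicate 3 (0.10) and without Col6a1-/- replicate 3 (0.085), Timp3 without Col6a1-/- replicate 3 (0.020), and Adamts5 turned negative without Col6a1-/- replicate 1 (-0.055).

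The number of genes called over all genes, 8 lower and 3 higher, moved more. It was 61 and 32 with no filter, 1556 and 1669 with library quality weights, 467 and 275 with DESeq2 (452 and 287 on the tested genes), 170 and 171 in the mixed-sex pools, 27 and 24 with the length and GC trend removed, and 0 and 0 with the male share as a covariate (1306 genes there had an unadjusted p under 0.05). With a filter at 50, 4 were lower, and with median centring 23. Leaving out a library gave 0 to 497 lower and 0 to 886 higher, the highest without wildtype replicate 3, and 0 in both directions without wildtype replicate 1 or Col6a1-/- replicate 3, where 1902 and 1979 genes had an unadjusted p under 0.05. The replicate block gave 6 lower and 1 higher, with adjusted p of 0.0536 for Adamts9 and 0.0615 for Adamts15. Same-numbered pools did not deviate together (correlations of -0.14, 0.11 and -0.0059), and 1 of the 3 wildtype pools correlated best with its own number. Levels per kb fell beyond the SD with the exon union for 6 of the 10 genes, Adamts9 to 229 and Adamts15 to 512 in wildtype. Timp4 rested on 72 to 118 reads per library.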

Other observations

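Among proteases outside the 10 genes, Adamts4 and Adamts17 had their lowest value in the same library, Col6a1-/- replicate 2. That library was the one with a male share of 100%. Adamts17, named after its values were seen, had 955, 867 and 1780 normalized counts in wildtype and 1017, 344 and 829 in Col6a1-/- replicates 1, 2 and 3, with a limma adjusted p of 0.263. Adamts4 had 117, 88.9 and 138 in wildtype and 108, 17.5 and 71.0 in Col6a1-/- replicates 1, 2 and 3. Adamts5, Adamts9 and Adamts15 were also lowest among Col6a1-/- libraries in replicate 2, while Adamts1, Adamts2, Adamts8, Timp2 and Timp3 were highest there. Wildtype replicate 3 was the highest wildtype library for 8 of the 10 genes. Adamts10, of which fibrillin microfibrils are a known partner, had 9950, 9792 and 9676 normalized counts in wildtype and 9509, 10174 and 8454 in Col6a1-/- lungs, with a log2 difference of -0.07, and was likewise named after its values were seen. Adamts16 and Adamts18 did not pass the filter on low values.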
